A study of Homo sapiens with 4 samples.

Results

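The platelet-derived growth factor (PDGF) receptor and ligand genes were followed at day 2 of hematopoietic differentiation of human embryonic stem cells, with and without a block of Wnt secretion. The set held 7 genes, taken by symbol from 56595 gene symbols in the table: the receptors PDGFRA and PDGFRB, the receptor-like gene PDGFRL, and the ligands PDGFA, PDGFB, PDGFC and PDGFD. All 7 were present on 1 row each, and all 7 passed the filter on low values that left 15957 genes for testing. The cells were H1, an established human embryonic stem cell line, cultured in Custom mTeSR1 medium with activin A at 40 ng/ml and BMP4 at 50 ng/ml, so that DMSO and IWP2 samples alike received both mesoderm-inducing factors. These concentrations are those of the sample labels, while the study's methods give them the other way round. The DMSO group (n = 2) is named for the solvent in its sample titles and had no IWP2. The IWP2 group (n = 2) received IWP2 for 2 days, at a concentration not given in the sources used here. IWP2 inhibits Porcupine, the acyltransferase that Wnt ligands need for secretion, and the comparison asks which transcripts depended on that step during mesoderm induction. Both groups came from a single line, and the labels do not say whether the 2 samples of a group were separate cultures, so p-values measure the spread between these samples, which may be technical.

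PDGFs are secreted dimers that bind a pair of receptor tyrosine kinases. PDGFRα binds the A, B and C chains, whereas PDGFRβ binds the B and D chains. In the gastrulating embryo PDGFRA is a well-known marker of nascent and paraxial mesoderm, with its ligand PDGFA made by neighbouring epiblast and epithelial cells, while PDGFRB and PDGFB are best known from the recruitment of mural cells to vessels. PDGFA and PDGFB are activated inside the cell by proprotein convertases, and PDGFC and PDGFD outside it, by proteases that remove an inhibitory CUB domain.

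Values were read as FPKM, fragments per kilobase of transcript, scaled to the size of the library. On that reading they can be set side by side between genes. Summed FPKM per sample lay between 616418 and 653850, and 13831 to 13926 rows per sample reached 1 FPKM. The depth of the libraries is not given in the sources used here, but the smallest steps of the values put 1 fragment on a 1 kb transcript at roughly 0.0455 to 0.0564 FPKM, depending on the sample. Differences are IWP2 minus DMSO on the log2(FPKM + 1) scale, which understates the change of low genes, and were tested with limma across all 15957 genes with Benjamini-Hochberg adjustment. At an adjusted p under 0.05, 7.39% of these genes were lower and 5.86% higher with IWP2. Each count of called list genes below is to be read beside these shares. The samples followed their labels. Of 8 Wnt target genes 6 fell and 2 did not pass the test, SP5 from 53.2 and 47.1 FPKM with DMSO to 0.379 and 0.363 with IWP2. All 11 fitted genes of a 12-gene mesoderm list fell, including APLNR, MESP1, MESP2 and FOXF1, and the summed level of that list was 1183 and 1506 FPKM with DMSO against 156.1 and 179.0 with IWP2. In the 4 fits that left out DMSO 1, DMSO 2, IWP2 1 or IWP2 2, 4 of the 6 Wnt targets and 8 of the 11 mesoderm genes passed every time, and AXIN2, NOTUM, TBXT, TBX6 and HAND1 did not (adjusted p up to 0.131).

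PDGFRA, the receptor for A, B and C chains, fell with IWP2. Its FPKM was 8.38 and 10.1 in the DMSO samples and 0.378 and 0.323 in the IWP2 samples, means of 9.25 ± 1.23 and 0.3503 ± 0.0392 (SD, n = 2 each). The groups did not overlap, with the IWP2 values lower, as for 31.0% of all fitted genes. The mean was 26.4-fold lower with IWP2. The log2 difference was -2.92 (SE 0.16, 95% interval -3.33 to -2.51, limma adjusted p = 0.00113), which placed PDGFRA at position 91 of 15957 counted from the largest fall. The call held in each of the 4 fits that left out 1 sample, with adjusted p between 0.0234 and 0.0404. In bulk RNA, fewer cells carrying a transcript and less transcript per cell cannot be told apart. The fall went together with that of the mesoderm list above and of a 7-gene definitive endoderm list, of whose 6 fitted genes CER1, GATA6, FOXA2, CXCR4 and HHEX fell, with summed levels of 1918 and 2307 FPKM against 126.3 and 137.3. CER1 made up most of the DMSO sums, and without it the list summed to 306.4 and 259.2 FPKM against 87.7 and 103.1. CER1 and GATA6 passed without any 1 of DMSO 1, DMSO 2, IWP2 1 and IWP2 2, and FOXA2 (adjusted p up to 0.119), CXCR4 (up to 0.128) and HHEX (up to 0.113) did not. SOX17 of that list did not pass the test, at 154.7 and 104.2 FPKM with DMSO and 79.7 and 94.9 with IWP2. The part of a shift in cell types in the fall of PDGFRA was not tested.

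PDGFRB, the receptor for B and D chains, did not follow PDGFRA. Its FPKM was 7.28 and 6.05 with DMSO and 10.3 and 7.84 with IWP2, means of 6.67 ± 0.875 and 9.08 ± 1.75 (SD, n = 2 each). Both IWP2 values lay above both DMSO values, an order that 27.6% of all fitted genes shared. The log2 difference of 0.39 (SE 0.17, 95% interval -0.05 to 0.83) did not pass the test (limma adjusted p = 0.217). A list of 10 mural cell and fibroblast genes covered the cell types in which PDGFRB is best known. The list's median log2 difference was -0.46, beside -0.01 over all fitted genes, and its called genes went in both directions. Of its 9 fitted genes TAGLN and THY1 rose, ANPEP and RGS5 fell and 5 did not pass the test, and the list summed to 779.9 and 701.3 FPKM with DMSO and 1020 and 1077 with IWP2. Without TAGLN, its most abundant gene, the order of the sums was the opposite, at 263.9 and 272.9 FPKM with DMSO and 202.1 and 203.0 with IWP2. Of the 4 that passed, ANPEP and RGS5 passed in all 4 fits that left out 1 of the samples DMSO 1, DMSO 2, IWP2 1 and IWP2 2, whereas TAGLN (adjusted p up to 0.126) and THY1 (up to 0.188) did not.

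PDGFRL (ENSG00000104213.12), which encodes a receptor-like protein with no kinase domain, measured 0.955 and 0.299 FPKM with DMSO and 1.57 and 2.01 with IWP2. The 2 DMSO samples differed from each other by more than the 2 IWP2 samples did. Both IWP2 values were higher, an order that 27.6% of all fitted genes shared. The log2 difference of 0.80 (SE 0.26, 95% interval 0.15 to 1.46) had an unadjusted p of 0.0253 and did not pass after adjustment over all genes (limma adjusted p = 0.114). The last 277 bases of PDGFRL overlap MTUS1 on the opposite strand, which measured 1.07, 1.45, 1.27 and 1.27 FPKM in the 4 samples, and the library kit does not mark strand.

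PDGFA, the ligand chain specific to PDGFRα, rose. It measured 1.14 and 0.719 FPKM with DMSO and 8.53 and 8.91 FPKM with IWP2, means of 0.931 ± 0.2999 and 8.72 ± 0.269 (SD, n = 2 each). The groups were well apart, and the mean was 9.37-fold higher with IWP2. The log2 difference was 2.34 (SE 0.17, 95% interval 1.92 to 2.77, limma adjusted p = 0.00242), position 28 of 15957 counted from the largest rise. With either DMSO sample left out the call held, and it was lost at adjusted p = 0.0635 without IWP2 replicate 1 and 0.0608 without IWP2 replicate 2, at nearly the same size (2.37 and 2.31).

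PDGFB, whose chain binds both receptors, rose as well. Its FPKM was 2.50 and 1.04 with DMSO and 11.4 and 10.9 with IWP2, means of 1.77 ± 1.03 and 11.2 ± 0.319 (SD, n = 2 each). The 2 DMSO samples were spread more widely than the 2 IWP2 samples, and the mean was 6.31-fold higher with IWP2. The log2 difference was 2.19 (SE 0.27, 95% interval 1.49 to 2.88, limma adjusted p = 0.0103), position 39 from the largest rise. It did not pass without IWP2 replicate 1 (adjusted p = 0.127) or without IWP2 replicate 2 (0.112), nor when low genes were kept in the fit (0.0844). An antisense gene that overlaps the 5′ end of PDGFB, AL031590.1, was listed at 0 in 3 samples and at 0.0311 FPKM in IWP2 replicate 2.

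The rise of PDGFA and PDGFB went together with that of pluripotency genes. Of 8 such genes 5 rose, among them SOX2 (0.193 and 0.174 FPKM with DMSO, 35.6 and 36.1 with IWP2), PRDM14 and POU5F1, while TDGF1 fell and NANOG and LIN28A did not pass the test. The list summed to 1371 and 1191 FPKM with DMSO and 2497 and 2502 with IWP2, but without POU5F1 to 619.9 and 620.1 against 643.1 and 658.6. Of a 7-gene amnion and trophoblast list, 3 of 5 fitted genes rose (KRT7, TFAP2A and GABRP) and none fell. Over all fitted genes 5.86% rose and 7.39% fell with IWP2. The sums of the amnion and trophoblast list were 64.2 and 64.2 FPKM with DMSO and 82.7 and 89.3 with IWP2. Its trophoblast hormone genes CGA and CGB, however, stayed under 0.1 FPKM in all samples. SOX2 alone of the called genes of both lists passed in all 4 fits that left out 1 of the samples DMSO 1, DMSO 2, IWP2 1 and IWP2 2, the largest adjusted p being 0.0873 for POU5F1, 0.0737 for PRDM14, 0.062 for TDGF1, 0.0707 for DPPA4, 0.172 for ZFP42, 0.062 for KRT7, 0.129 for TFAP2A and 0.124 for GABRP. The part of these cell states in the rise of the ligands was not tested.

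PDGFC, a PDGFRα ligand activated outside the cell, measured 1.24 and 1.19 FPKM with DMSO and 1.25 and 1.57 with IWP2. IWP2 replicate 1 was level with the DMSO samples. The log2 difference of 0.12 (95% interval -0.32 to 0.55) did not pass the test (limma adjusted p = 0.703).

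PDGFD, a PDGFRβ ligand, measured 0.991 and 1.15 FPKM with DMSO and 1.03 and 0.808 with IWP2. It was the one member whose groups overlapped, and its log2 difference was -0.11 (95% interval -0.56 to 0.34, limma adjusted p = 0.733). For PDGFC and PDGFD the intervals did not reach a change of the size seen for PDGFA or PDGFB in either direction.

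**Figure D1:**
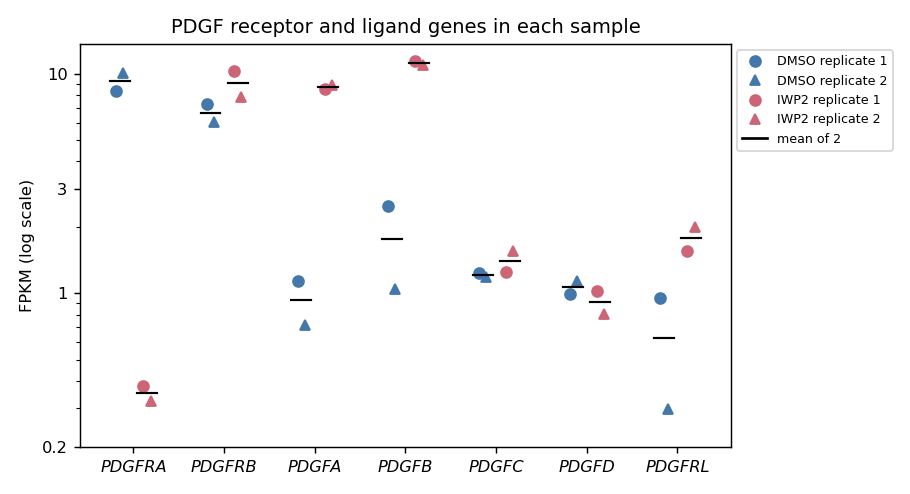
FPKM on a log axis for the 7 genes, with each of the 2 DMSO and 2 IWP2 samples as a point and the group mean as a line. PDGFRA drops from 8.38 and 10.1 FPKM to 0.378 and 0.323, PDGFA and PDGFB climb to between 8.53 and 11.4 FPKM, and the IWP2 and DMSO points of PDGFC and PDGFD lie within 0.808 to 1.57 FPKM.

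Of the 7 genes 1 was called lower and 2 higher, against 7.39% and 5.86% of all fitted genes, or 13.3% in either direction. In 6 of 7 the 2 groups did not overlap, which 58.6% of all fitted genes shared. The median log2 difference of the 7 was 0.39, beside -0.01 over all fitted genes.

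**Figure D2:**
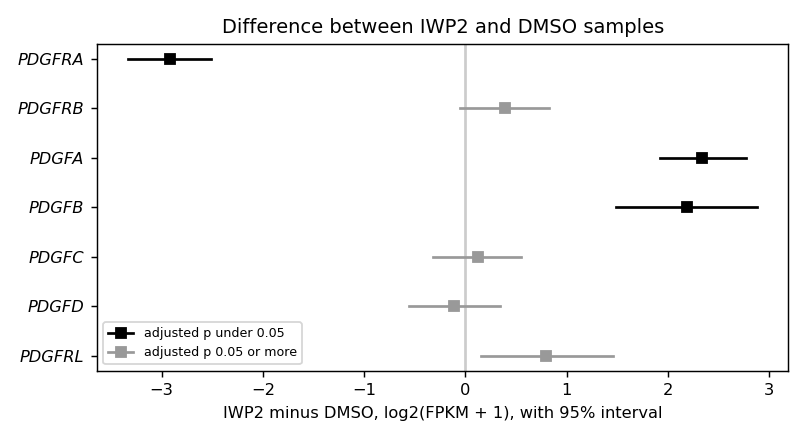
Difference between IWP2 and DMSO samples for each gene on the log2(FPKM + 1) scale with the 95% interval of the limma fit, black where the adjusted p is under 0.05. PDGFRA lies at -2.92, PDGFA at 2.34 and PDGFB at 2.19, and the intervals of PDGFRB, PDGFC and PDGFD include 0.

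The order of the levels was turned over. With DMSO, PDGFRA (8.38 and 10.1 FPKM) and PDGFRB (7.28 and 6.05) stood above all ligands, and their ranges did not overlap. Below them PDGFB, PDGFC, PDGFD, PDGFA and PDGFRL lay between 0.299 and 2.50 FPKM, and the range of PDGFB overlapped those of PDGFC, PDGFD and PDGFA, as the range of PDGFRL overlapped that of PDGFA. With IWP2 the highest were PDGFB (11.4 and 10.9) and then PDGFRB (10.3 and 7.84), whose range took in that of PDGFA (8.53 and 8.91). PDGFRL, PDGFC and PDGFD followed, PDGFRL and PDGFC with ranges of 1.57 to 2.01 and 1.25 to 1.57 FPKM that met. PDGFRA, the highest of the 7 with DMSO, was the lowest with IWP2.

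Read as shares, PDGFRA made up 53.5% and 62.6% of the summed FPKM of PDGFRA and PDGFRB in the DMSO samples and 3.54% and 3.95% in the IWP2 samples, a difference of -54.3 percentage points. The groups did not overlap, and the exact two-sided permutation test gave p = 0.33, the smallest value that 2 against 2 samples allow. The receptor sum was 15.9 ± 0.353 FPKM with DMSO and 9.43 ± 1.79 with IWP2 (SD, n = 2 each), 1.69-fold lower. The sum of the 4 ligands was 4.98 ± 1.26 FPKM with DMSO and 22.2 ± 0.0196 with IWP2 (SD, n = 2 each), 4.46-fold higher. This increase lay in PDGFA and PDGFB, whose sum was 7.37-fold higher, while PDGFC and PDGFD together measured 2.24 and 2.33 FPKM with DMSO and 2.28 and 2.38 with IWP2. PDGFA went from 19.5% and 17.6% of the ligand sum to 38.4% and 40.1%. PDGFB went from 42.5% and 25.5% to 51.3% and 49.2%, and the DMSO samples differed from each other by about as much as the group means did. The mean difference of 16.3 points for PDGFB became 24.8 without DMSO replicate 1 and 7.78 without DMSO replicate 2. PDGFC and PDGFD together went from 38.0% and 57.0% to 10.2% and 10.7%.

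**Figure D3:**
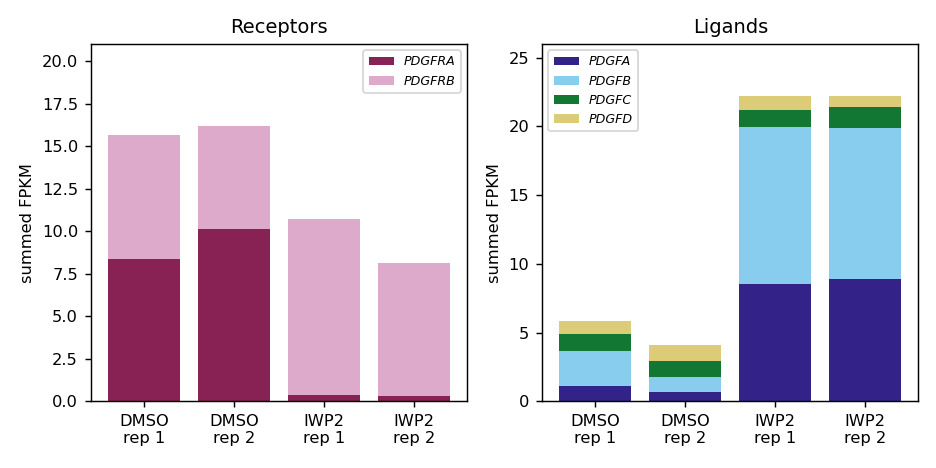
Stacked bars of FPKM per sample, the 2 receptors at left and the 4 ligands at right. The receptor bars lose the PDGFRA portion and come down from 15.7 and 16.2 to 10.7 and 8.16 FPKM, and the ligand bars grow from 5.87 and 4.09 to 22.2 FPKM in each IWP2 sample.

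The loci are given on GRCh38, as the table's own coordinates were, and all 7 are protein-coding. PDGFRA (ENSG00000134853.11) spans chr4:54229097-54298247 on the plus strand and PDGFRB (ENSG00000113721.13) chr5:150113837-150155872 on the minus strand. PDGFA (ENSG00000197461.13) spans chr7:497258-520296, PDGFB (ENSG00000100311.16) chr22:39223359-39244751, PDGFC (ENSG00000145431.10) chr4:156760454-156971394 and PDGFD (ENSG00000170962.12) chr11:103907186-104164379, all on the minus strand. A read-through gene, AC058822.1, covers 66176 bases of PDGFRA on the same strand, and was listed at no more than 1.03e-12 FPKM in any sample. How the authors' counting split reads shared between them was not tested. The genes that overlap PDGFC and PDGFD on the opposite strand were listed at 0 in all samples.

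The promoters of PDGFRA and PDGFA are shown because these genes moved the farthest and in opposite directions. Sequences are RefSeq windows on GRCh38.p14, 250 bases before to 50 bases after an annotated start, read 5′ to 3′ on the gene's strand, and 4 of 6 members looked up had windows. Capitals mark matches, on either strand, to any of 4 motifs chosen after the expression values were seen: CTTTGAT (TCF/LEF), CAGGTG (an E-box that SNAI factors bind), AGGTGTGA (T-box) and CCCCGCCC (SP/KLF). The PDGFA window shown is the one of its 4 windows that held the TCF/LEF letters, picked after the search.
PDGFRA, chr4:54229043-54229342, plus strand: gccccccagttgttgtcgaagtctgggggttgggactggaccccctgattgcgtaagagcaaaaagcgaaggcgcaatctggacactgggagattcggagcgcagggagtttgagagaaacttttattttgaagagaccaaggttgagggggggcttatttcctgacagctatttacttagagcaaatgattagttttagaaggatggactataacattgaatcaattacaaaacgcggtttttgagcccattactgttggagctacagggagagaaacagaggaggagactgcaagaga
PDGFRA, chr4:54233710-54234009, plus strand: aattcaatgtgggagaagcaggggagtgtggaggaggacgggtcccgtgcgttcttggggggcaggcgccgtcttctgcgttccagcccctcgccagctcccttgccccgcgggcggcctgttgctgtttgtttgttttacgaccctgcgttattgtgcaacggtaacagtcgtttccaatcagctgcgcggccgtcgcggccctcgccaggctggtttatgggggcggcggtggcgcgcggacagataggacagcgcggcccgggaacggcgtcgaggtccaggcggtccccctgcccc
PDGFA, chr7:519797-520096, minus strand: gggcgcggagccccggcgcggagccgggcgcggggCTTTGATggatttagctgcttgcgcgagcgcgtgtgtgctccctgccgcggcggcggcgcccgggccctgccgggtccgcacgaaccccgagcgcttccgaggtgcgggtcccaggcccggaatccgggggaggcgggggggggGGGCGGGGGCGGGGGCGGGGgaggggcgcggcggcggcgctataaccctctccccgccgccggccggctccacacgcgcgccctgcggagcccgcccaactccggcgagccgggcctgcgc

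Neither PDGFRA window held any of the 4 motifs. The upstream PDGFRA window was 47.0% G and C with 8 CpG dinucleotides, and the second one 66.7% with 32, against medians of 58.7% and 14 over all 35116 windows of this length. The PDGFA window was 81.7% G and C with 49 CpG. It held the TCF/LEF letters once, at bases -215 to -209 from the start. These letters were in 2.62% of all windows, and 3.18% of genes held them in any of their windows. PDGFA had 4 windows, so neither share is a measure of how unusual the picked window is. The same window held 3 SP/KLF matches, 2 pairs of which overlap by 2 bases, a motif found in 22.8% of all windows. The other 3 PDGFA windows each held the E-box letters once (20.6% of all windows). Of these, chr7:520177-520476 also held 3 SP/KLF matches and chr7:518280-518579 held 1. T-box letters were in none of the members' windows and in 0.98% of all windows. Gene-level FPKM does not tell which start was used, and a match describes letters, not binding.

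Among the proteins that process PDGFs or hold them outside the cell, FURIN rose and NRP1 and SPARC fell. Of the 9 fitted genes 6 did not pass the test, and A2M was too low to be fitted. Over all fitted genes 5.86% rose and 7.39% fell with IWP2. FURIN, the convertase that cleaves the A and B chain precursors, measured 41.9 and 36.6 FPKM with DMSO and 57.3 and 54.8 with IWP2 (log2 difference 0.51, limma adjusted p = 0.0339). NRP1, a co-receptor that can bind PDGFs as well as VEGF, went from 15.01 and 14.5 FPKM to 1.34 and 0.946 (-2.88, adjusted p = 0.00101). The mean of NRP1 was 12.9-fold lower with IWP2. SPARC, a matrix protein that binds B chains, measured 1034 and 1026 FPKM with DMSO and 689.7 and 733.0 with IWP2 (-0.53, adjusted p = 0.0183). The median log2 difference of the list was -0.13. NRP1 passed in all 4 fits that left out 1 of the samples DMSO 1, DMSO 2, IWP2 1 and IWP2 2, and FURIN (adjusted p up to 0.21) and SPARC (up to 0.142) did not.

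Of 26 adaptors, kinases and effectors of the intracellular relay downstream of the receptors, SRC and PIK3R1 fell, none rose and 24 did not pass the test, a share of falls near the 7.39% of all fitted genes, and the list's median log2 difference was -0.11. SRC, the founding member of the kinase family that docks on activated PDGF receptors, measured 57.4 and 66.0 FPKM with DMSO and 26.2 and 24.6 with IWP2 (log2 difference -1.25, SE 0.10, limma adjusted p = 0.00365). PIK3R1, the p85α regulatory subunit of PI3-kinase, measured 7.65 and 8.32 FPKM with DMSO and 2.48 and 1.78 with IWP2 (-1.53, SE 0.16, adjusted p = 0.00677). Both genes fell without overlap of the groups, as did 31.0% of all fitted genes. PIK3R2, which encodes another regulatory subunit, measured 29.3 and 30.6 FPKM with DMSO and 36.3 and 39.3 with IWP2 (limma adjusted p = 0.0802). With 1 of the samples DMSO 1, DMSO 2, IWP2 1 or IWP2 2 left out, SRC passed in 2 of 4 fits (adjusted p up to 0.0666) and PIK3R1 in 0 of 4 (up to 0.0742). The summed level of the list was 719.7 and 723.9 FPKM with DMSO and 712.4 and 685.2 with IWP2. None of the 4 phosphatases that act on PDGF receptors (PTPN1, PTPN2, PTPRJ and ACP1) passed the test, with a median difference of -0.02.

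The nearest relatives of the PDGF family were compared next. Of 15 related receptors and ligands 10 were fitted, of which KDR and PGF fell and 8 did not pass the test, with a median log2 difference of -0.14. Among all fitted genes 7.39% were lower and 5.86% higher with IWP2. KDR, the main VEGF receptor, measured 53.2 and 60.4 FPKM with DMSO and 38.6 and 35.7 with IWP2 (-0.60, limma adjusted p = 0.0234), a smaller fall than that of PDGFRA, for which the difference between the 2 genes was not tested. PGF, a ligand of FLT1, measured 15.4 and 12.6 against 6.50 and 5.88 FPKM (-1.06, adjusted p = 0.0116). KIT, the stem cell factor receptor of the same receptor class as PDGFRA, measured 4.15 and 2.26 with DMSO and 6.74 and 6.43 FPKM with IWP2 (0.89, adjusted p = 0.0796). Its log2 difference was thus opposite in sign to that of PDGFRA but did not pass. FLT1 (-0.20), FLT4 (-0.11), KITLG (0.22), CSF1 (0.21), FLT3LG (-0.05), VEGFA (-0.17) and VEGFB (-0.39) did not pass either, and CSF1R, FLT3, IL34, VEGFC and VEGFD were below the filter. Left out in turn, DMSO 1, DMSO 2, IWP2 1 and IWP2 2 left KDR called in 0 of 4 fits (adjusted p up to 0.166) and PGF in 1 of 4 (up to 0.121). Of 6 endothelial genes, 4 were fitted, TEK fell and 3 did not pass the test, with sums of 13.2 and 8.48 FPKM against 5.11 and 6.07, and PECAM1 and CDH5 stayed under 0.5 FPKM in all samples. TEK did not pass in any of the 4 fits without DMSO 1, DMSO 2, IWP2 1 or IWP2 2 (adjusted p up to 0.239). Of 6 blood genes RUNX1 alone was fitted, and it fell (-1.43), while PTPRC, GATA1 and TAL1 stayed under 0.1 FPKM. Of 5 neuroectoderm genes 3 were fitted, with a median log2 difference of -0.72, and SOX1 was near 0. NES rose (0.49). PAX6 (-0.89, limma adjusted p = 0.0771) and OTX1 (-0.72, adjusted p = 0.0673) had the opposite sign and did not pass the test. PAX6 measured 1.33 and 0.646 FPKM with DMSO and 0.0838 and 0.0278 with IWP2, and OTX1 0.794 and 0.973 against 0.138 and 0.141. RUNX1 (adjusted p up to 0.0964) and NES (up to 0.212) passed in 0 of the 4 fits without DMSO 1, DMSO 2, IWP2 1 or IWP2 2.

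Set among all receptor tyrosine kinases, a list of 58 genes drawn up after the values were seen, PDGFRA had the second lowest log2 difference. Of 45 fitted kinases 12 fell, 8 rose and 25 did not pass the test, and their median difference was -0.09. Over all fitted genes 7.39% fell and 5.86% rose, so calls in both directions were more frequent on this list. EPHA4, an ephrin receptor, lay next to PDGFRA at 14.6 and 16.7 FPKM with DMSO and 1.45 and 0.908 with IWP2 (-2.94, limma adjusted p = 0.00141). PDGFRA, EPHA4 and EPHB2 (-2.27) were the 3 called kinases that passed in all 4 fits leaving out a sample, and the other 17 were lost without 1 or more of DMSO 1, DMSO 2, IWP2 1 and IWP2 2. At the other end stood EPHB6 (2.28) and EPHB1 (1.97). PDGFRB was among the 25 that did not pass.

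**Figure D4:**
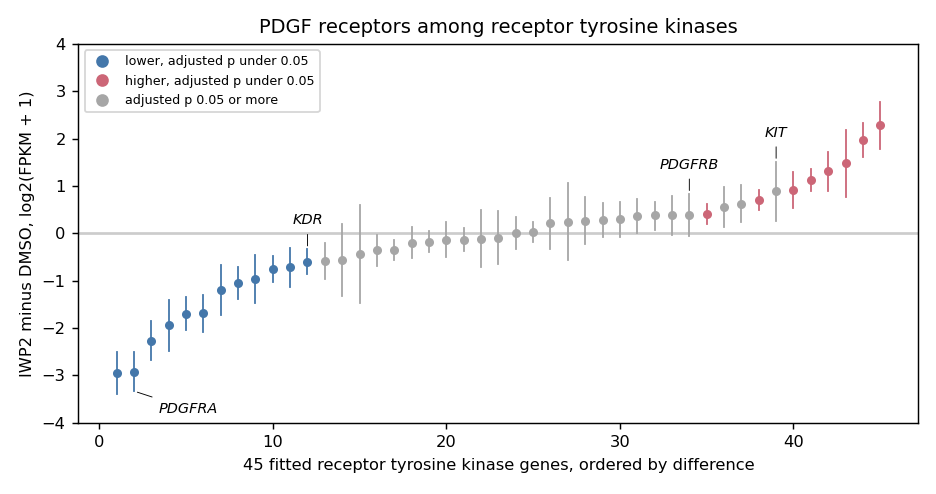
The 45 fitted receptor tyrosine kinase genes in order of their log2(FPKM + 1) difference, each with its 95% interval. PDGFRA is second from the left at -2.92, KDR is at -0.60, and PDGFRB (0.39) and KIT (0.89) are among the grey genes on the right that did not pass the test.

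PDGFRA lies in a stretch of chromosome 4 that also holds KIT and KDR, and the values of its neighbours are given here. Of 10 neighbours 9 were fitted, 2 fell and 7 did not pass the test, and their median difference was -0.16. Over all fitted genes 7.39% were lower with IWP2, a smaller share than among these few neighbours. CHIC2, whose lower end lies 219.3 kb below that of PDGFRA, measured 9.22 and 8.64 FPKM with DMSO and 4.06 and 5.59 with IWP2 (-0.78, limma adjusted p = 0.042). GSX2, between CHIC2 and PDGFRA, was at or below 0.106 FPKM. The lower end of KIT lies 428.8 kb above that of PDGFRA and the lower end of KDR 849.4 kb above it, with the values given earlier. LNX1 (0.77, adjusted p = 0.055), FIP1L1 (-0.21), SCFD2 (-0.16), SRD5A3 (-0.12), TMEM165 (-0.04) and CLOCK (-0.46) did not pass. The largest fall among the fitted neighbours was the -0.78 of CHIC2, beside -2.92 for PDGFRA. Whether a change was shared along the chromosome was not tested. With DMSO 1, DMSO 2, IWP2 1 or IWP2 2 left out, neither CHIC2 (adjusted p up to 0.197) nor KDR (up to 0.166) passed.

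**Figure D5:**
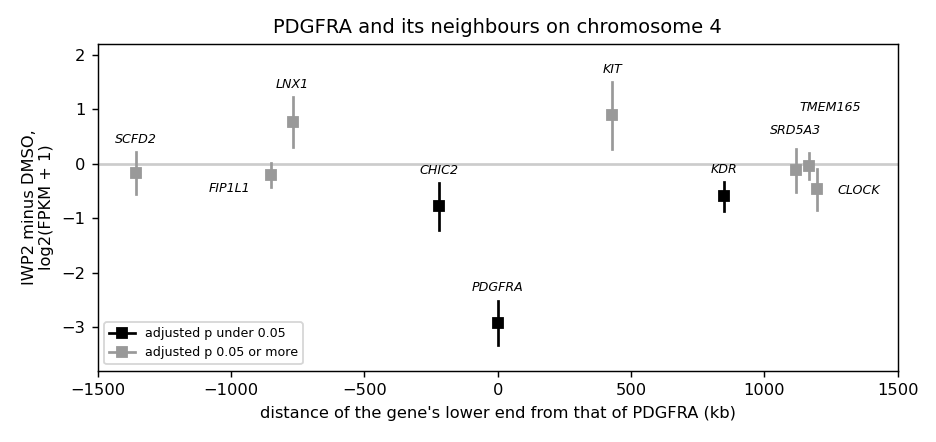
Log2(FPKM + 1) difference with 95% interval for PDGFRA and 9 neighbours against the distance in kb between lower ends of the genes. PDGFRA lies at -2.92, CHIC2 at -0.78 and KDR at -0.60, and the 7 grey genes did not pass the test.

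The genes with the profile most like each member were found by the Euclidean distance between log2(FPKM + 1) values centred on the 4 samples, among 14009 other genes with a mean of at least 1 FPKM. Likeness on this scale is not likeness in fold, since adding 1 to the FPKM compresses the changes of low genes. Genes chosen this way share the member's pattern over the 4 samples by construction. The nearest to PDGFRA were FGF8 (distance 0.071), RCSD1 (0.09), PSKH2 (0.095), LIX1 (0.101) and TNFSF9 (0.12). FGF8, a growth factor of the primitive streak, measured 14.8 and 16.7 FPKM with DMSO and 1.19 and 1.12 with IWP2. The nearest to PDGFA were EPN3 (0.118), ESRG (0.123), EPHB6 (0.162), CRABP1 (0.218) and CACNG4 (0.22). ESRG, a noncoding RNA known from human embryonic stem cells, measured 9.75 and 7.08 FPKM with DMSO and 41.6 and 44.8 with IWP2. The nearest to PDGFB were AL353747.4 (0.081), DHRS3 (0.115), LYPD1 (0.128), CLDN4 (0.134) and LINC00678 (0.17). CLDN4, an epithelial claudin, measured 9.22 and 4.75 FPKM with DMSO and 31.0 and 33.0 with IWP2, with DMSO replicate 1 above DMSO replicate 2 as for PDGFB. The 4 members that did not pass the test had nearest genes of equally modest change, as the choice by distance requires. They were AL117378.2, PDE5A, MIATNB, KLHL3 and ERV3-1 for PDGFRB, C10orf10, CTSV, BCAS4, SGK1 and PIM2 for PDGFRL, EIF6, MCUB, PCGF2, NUDT2 and AC010642.2 for PDGFC, and EDEM3, AC068587.6, EPG5, PMS2 and ELOA for PDGFD.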

How the data were processed

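Total RNA from 4 samples of H1 cells was sequenced after library preparation with an Illumina TruSeq RNA kit, per the labels. The authors deposited 1 table with 58365 rows and 1 column of values per sample, read here as FPKM. Its header names no unit. The column sums differ between samples, unlike TPM. The values have decimals, unlike whole counts, though RSEM can also give fractional counts. Columns headed -IWP2 were taken as the DMSO samples and +IWP2 as the IWP2 samples. The submitters' processing notes name BWA, Bowtie, RSEM and hg19, yet 97.3% of the rows found in GENCODE 29 carry identical GRCh38 coordinates, and GRCh38 is used here.

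The row with the highest mean was kept for each of 343 repeated symbols. Genes with a mean of at least 0.5 FPKM over the 4 samples were fitted as log2(FPKM + 1) with limma 3.58.1 (R 4.3.3, mean-variance trend), IWP2 minus DMSO, with Benjamini-Hochberg adjustment and calls at an adjusted p under 0.05. Shares of FPKM were compared by exact permutation. Python 3.11.15, pandas 2.3.3 and matplotlib 3.10.9 were used for the rest.

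The members and lists were chosen with earlier results of these data known. 1 gene of the list of processing and binding proteins is not reported here and was left out of that list's counts and median. Named were the 7 members, called genes of the PDGF lists, fitted relatives and neighbours of PDGFRA, up to 4 called genes with the largest change per marker list, and the 5 genes nearest to each member. Exceptions are A2M, PIK3R2, SOX17, NANOG, LIN28A, ZFP42, DPPA4, HHEX, AXIN2, NOTUM, TBXT, TBX6, HAND1, PAX6, OTX1, the phosphatases and the receptor tyrosine kinases, named after their values were seen. Alternatives covered the pseudocount, filter, scaling, prior, replicate block, repeated symbols and each sample left out.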

Additional observations from a re-analysis of the deposited data

How the results depend on the processing

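PDGFRA was called lower in all 10 alternatives with 4 samples (log2 difference -4.37 to -2.86, adjusted p 0.000645 to 0.0388) and in all 4 fits that left out 1 sample (-3.04 to -2.80). PDGFA was called higher in all 10 (2.34 to 3.13), and PDGFB in all but the fit with no filter on low values (2.19, adjusted p = 0.0844). Leaving out 1 sample gave 2.18 to 2.50 for PDGFA and 1.80 to 2.58 for PDGFB. The other members stayed uncalled in every alternative run. PDGFD had no value with a minimum mean of 1 FPKM. In a left-out fit the lone sample of a group is assumed to vary like the other group. Over all genes, 935 were higher and 1180 lower with IWP2, 118 and 266 with no filter, and 46 to 352 and 140 to 500 with 1 sample left out. The PDGF pathway lists held 5 called genes, 2 with no filter and 1 to 3 with 1 sample left out. The fits with fewer samples have fewer degrees of freedom. The difference of the PDGFRA share ranged from -58.8 to -49.8 percentage points. Among other named genes, fits with all 4 samples and the filter kept ended the calls of FURIN (adjusted p = 0.072), KDR (0.052), THY1 (0.0796), NES (0.0803), ZFP42 (0.0587), CHIC2 (0.0555) and ERBB2 (0.0748) without the limma trend, of CHIC2 with quantile normalization (0.0516), of TEK with median-of-ratios scaling (0.0504) and of DDR2 with a pseudocount of 0.1 (0.0597), while LNX1 passed with quantile normalization (0.0466) and a robust prior (0.0485). With no filter more were lost, FURIN, SPARC, KDR, PGF, PIK3R1 and CHIC2 among them. The sign turned for uncalled genes only, each with 1 sample left out: FLT4 (range -0.37 to 0.15), FLT3LG (-0.21 to 0.1), VEGFA (-0.38 to 0.03), SRD5A3 (-0.31 to 0.06) and TMEM165 (-0.12 to 0.04).

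The labels give both groups the replicate numbers 1 and 2 without saying what they mark. Deviations from the group means of same-numbered samples correlated at 0.138 over 15957 genes. With the replicate block, 849 genes were higher and 1073 lower, and no member's call changed (log2 differences of -2.92 for PDGFRA, 2.34 for PDGFA and 2.19 for PDGFB). Of the other named genes, the calls of CHIC2 (adjusted p = 0.0531), TEK (0.0756), DDR2 (0.0534) and ERBB2 (0.0599) were lost under the block. Depth was estimated only roughly, and 2 samples a group limit the precision.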
